A study of Mus musculus with 18 samples.

Results

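Germ cells of the juvenile mouse testis were compared with the latest cells of a germ cell differentiation culture. The comparison took 4 of the 18 arrays of the series, chosen by their labels. The juvenile group was 2 arrays of GFP-positive cells from Dazl-GFP transgenic mice, sorted from dissociated testes at postnatal days 7 to 11 (labelled P7-P11). The day 16 group was 2 arrays of GFP-positive cells sorted after 16 days of differentiation of Dazl-GFP embryonic stem (ES) cells. These had been grown on feeder fibroblasts with Lif, freed of feeders, replated on gelatin and, at harvest, dispersed with trypsin and collagenase IV. All samples were labelled male and of mixed C57BL/6 and 129SV background, and all carried the Dazl-GFP reporter, in which GFP marks cells that use the promoter of Dazl, a germ cell RNA-binding protein. Total RNA was extracted with TRIZOL. The other 14 arrays covered GFP-sorted ES cells of Stella-GFP and Dazl-GFP lines, Stella-GFP day 7 and Dazl-GFP day 12 cultures, and Dazl-GFP germ cells of the E13.5 embryonic gonad. The labels do not say how many animals were pooled or whether the arrays of a group came from separate animals or cultures. The p-values therefore measure only the spread between arrays of the same group, which may be technical. That spread was pooled over all groups of the 18 arrays, not taken from the 4 compared arrays alone.

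At this juvenile stage the testis cords hold spermatogonia, the mitotic germ cells that contain the stem cells of spermatogenesis, and the first cells to enter meiosis. Primordial germ cells, their embryonic precursors, still use genes of the pluripotency network such as Pou5f1 and Nanog, which are silenced as male germ cells mature. Spermatogonia and early spermatocytes use germ granule and piRNA pathway genes, which restrain transposons, and genes of the chromosome axis and of meiotic recombination. The series labels the day 16 cells as in vitro primordial germ cells, so the comparison sets postnatal germ cells against the oldest cultured cells of the same reporter.

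RNA was measured on 1-colour Agilent arrays. A level below is the log2 processed signal minus the log2 of that array's 75th percentile. A difference is the juvenile mean minus the day 16 mean on that scale, given as a fold or in log2 units. Its standard error (SE, n = 2 arrays in each group) uses the spread within all 9 groups, from 1 fit. Levels of different genes come from different probes and are not set against each other. A probe counted as measured on an array where the scanner software called its spot well above background. For a gene measured on neither array of the lower group the fold is a lower bound, written "at least", against the higher of the weakest signal called well above background and the gene's own signal. The 75th percentile signals were 474 and 435 on the juvenile arrays and 156 and 164 on the day 16 arrays, and 64.6% and 68.9% of probes against 58.6% and 61.0% were well above background. No spot was saturated. The juvenile arrays were on slide 6 with the E13.5 arrays, and the day 16 arrays were on slides 5 and 4 and were scanned on another day, so slide and group cannot be told apart. Over genes measured on both arrays of a group, the day 16 arrays differed by a median of 0.062 log2 units, the smallest of the 9 groups, and the juvenile arrays by 0.443, second to E13.5 (0.481). Precision is limited by the number of arrays and, for most genes, by the spread of the juvenile and E13.5 pairs.

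Both stem cell markers given with the comparison were higher in the juvenile cells. Gfra1, the GDNF co-receptor of spermatogonial stem cells, read -2.27 and -0.21 on juvenile arrays 1 and 2 and -5.41 and -4.15 on the day 16 arrays, of which 1 was well above background. The groups did not overlap, and the difference was 11.6-fold (3.54 ± 0.81 SE, limma adjusted p = 0.00369). Bcl6b, a transcriptional repressor induced by GDNF that supports stem cell self-renewal, read -1.64 and 1.39 on the juvenile arrays and -4.71 and -5.60, at background, on the day 16 arrays. It was at least 26.0-fold higher (adjusted p = 0.000183). Both genes were highest on juvenile array 2. With limma's array quality weights Gfra1 lost its call (adjusted p = 0.0747). With normexp background correction it stood at -0.13 (adjusted p = 0.801) and Bcl6b at 0.53 (adjusted p = 0.388), where the median of all genes was -0.67. This setting adds an offset of 50 to every corrected signal before the scaling.

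The reporter gene itself did not pass the test in the main setting. Dazl read 4.79 and 4.98 in the juvenile cells and 4.85 and 4.78 at day 16, so the groups overlapped (0.06 ± 0.16 SE, adjusted p = 0.769); with normexp it was called higher (0.92, adjusted p = 0.00348). Ddx4, the Vasa RNA helicase of germ granules, read 4.47 and 4.89 against 1.71 and 1.64, an 8.03-fold rise (3.01 ± 0.23 SE, adjusted p = 1.77e-06). Kit, the stem cell factor receptor of primordial germ cells and differentiating spermatogonia, read 2.27 and 1.75 against 2.24 and 2.20 (adjusted p = 0.465). Of these general germ cell markers Ddx4 separated the groups, while the arrays of the groups overlapped for Dazl and Kit.

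The genes are described below by lists of known function. In all, 9300 of 18876 genes tested (49.3%) passed an adjusted p of 0.05 (limma, 1 fit over all 18 arrays, Benjamini-Hochberg over all genes). Of these, 4950 (26.2% of genes tested) were higher and 4350 (23.0%) lower in the juvenile cells, so 53.2% of the calls were rises. The median difference over all genes was 0.12. Normexp background correction shifted that median to -0.67 and the share of rises to 31.9%, and with no filter on dim probes the median was -0.22 and the share 41.0%. Differences are therefore read beside the median of all genes, and the counts of each list beside 26.2% rises and 23.0% falls. Among the lists that rose most often were the piRNA, germline RNA-binding, X-linked germ cell and Sertoli cell lists, and among those that fell most often the pluripotency, glycolysis and lens lists, as the plot of calls by gene list shows.

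**Figure D1:**
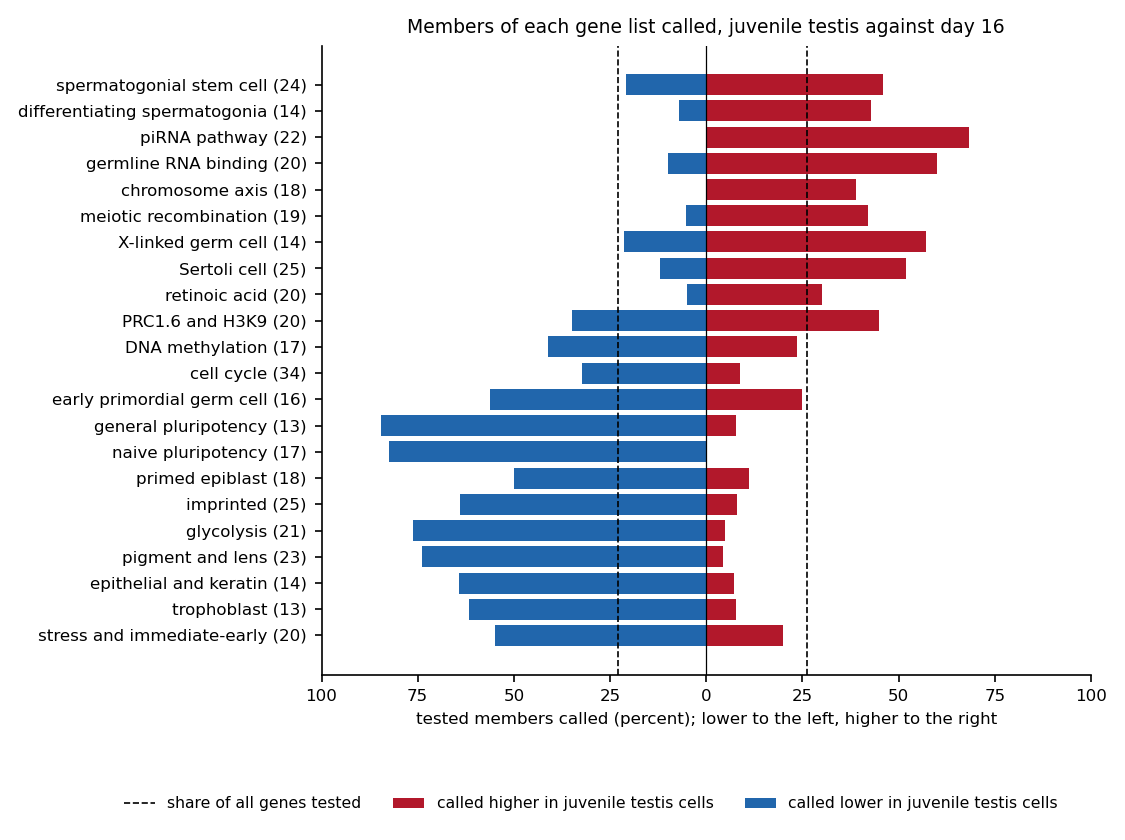
Share of the tested members of 22 gene lists called higher (red, to the right) or lower (blue, to the left) in juvenile testis cells against day 16 cells, in percent, with the number of members tested in parentheses. Dashed lines mark the shares over all genes tested, 26.2% higher and 23.0% lower; 15 of 22 piRNA pathway members were higher and 14 of 17 naive pluripotency members lower.

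The juvenile arrays differed from each other by gene list. Over all genes 43.8% were higher on array 1, but 17 of 18 chromosome axis genes and 19 of 25 Sertoli cell genes were higher there, with median differences of 1.12 and 1.20 log2 units. In the other direction, 22 of 24 spermatogonial stem cell genes and 21 of 22 piRNA genes were higher on array 2, with median differences of 1.36 and 0.57. Array 1 thus had more signal of meiotic axis and Sertoli genes, and array 2 more of stem cell genes. In bulk RNA, fewer cells of a type and less RNA per cell cannot be told apart. The postnatal days of the animals behind each array are not given beyond P7-P11, and what part this difference had in the results was not tested.

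**Figure D2:**
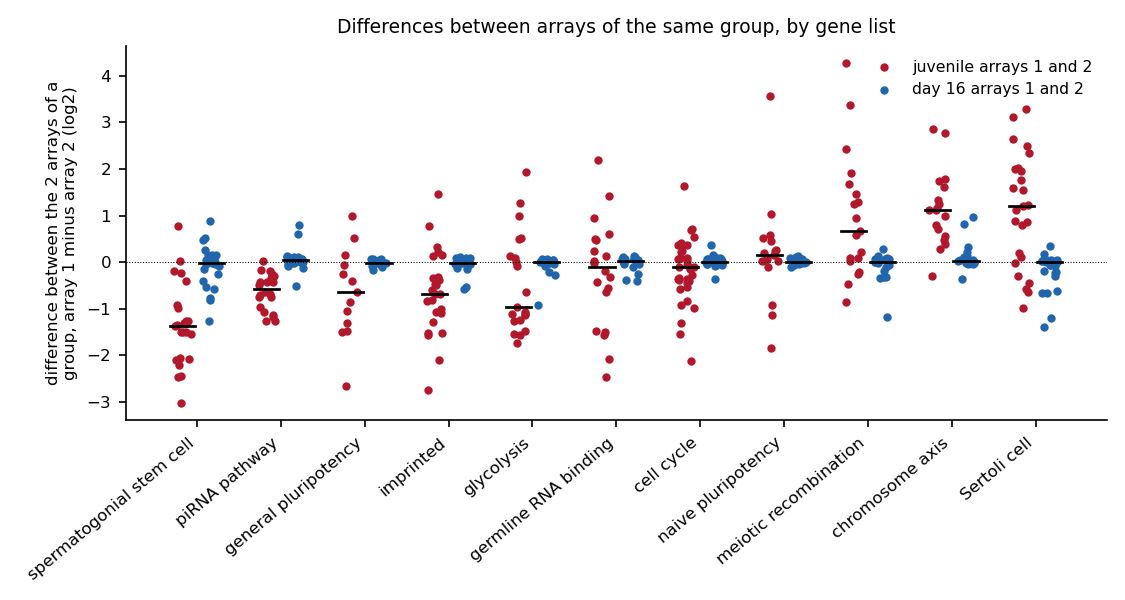
Difference between the arrays of a group, array 1 minus array 2 in log2 units, for each tested member of 11 gene lists; red points are the juvenile pair, blue points the day 16 pair, and black bars medians. Most red points of the stem cell and piRNA lists lie below 0 (medians -1.36 and -0.57) and those of the axis and Sertoli lists above it (1.12 and 1.20), while blue medians lie near 0.

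Spermatogonial stem cell genes moved in both directions. Of 26 listed genes 24 were tested, and 11 rose, 5 fell and 8 did not pass, with a median difference of 1.01 that was -0.72 with normexp background correction, under which 4 rose and 10 fell. Sox3, an X-linked transcription factor of undifferentiated spermatogonia, read -1.36 and -0.43 in the juvenile cells and -4.03 and -4.56 at day 16, a 10.6-fold rise (3.40 ± 0.44 SE, adjusted p = 8.68e-05), but it stood at 0.02 (adjusted p = 0.957) with normexp. Foxo1, a transcription factor needed for stem cell maintenance, read 2.84 and 3.83 against 1.67 and 1.70 and rose 3.13-fold (adjusted p = 0.00152). Id4, an inhibitor of DNA-binding factors that marks stem cells, read 1.21 and 2.72 against 0.04 and 0.03 (3.82-fold, adjusted p = 0.00316), but its probes disagreed, ranging from -1.10 to 1.93, and their mean did not pass (0.42, adjusted p = 0.424). Among the 5 that fell were genes that ES cells use too. Cdh1, the adhesion molecule E-cadherin, read -2.01 and -0.70 against 2.92 and 2.91, 19.3-fold lower (-4.27 ± 0.53 SE, adjusted p = 6.08e-05). Utf1, a chromatin factor of pluripotent cells and early spermatogonia, read -1.91 and -1.51 against 1.99 and 2.03, 13.2-fold lower (adjusted p = 7.47e-05). Itga6, the integrin subunit used to sort stem cells, read 1.27 and 2.77 against 3.69 and 3.53 and fell 3.01-fold (adjusted p = 0.003), but not with normexp (-0.74, adjusted p = 0.0648). Etv5, an ETS factor of stem cell self-renewal, read -3.58 and -1.47 against -0.47 and -0.31 and fell 4.39-fold (adjusted p = 0.0154). Sall4, shared by pluripotent cells and spermatogonia, read 1.39 and 2.70 against 2.59 and 2.61 and did not pass (adjusted p = 0.194), but was called lower without juvenile array 2 (-1.21, adjusted p = 0.00198). The count of rises depended on single arrays: it was 6 without day 16 array 1, 7 without day 16 array 2 and 7 without juvenile array 2. The falls were 3 without either day 16 array or juvenile array 1, and the median was 0.38 without juvenile array 2. Etv5 did not pass as a mean over its probes (-1.301, adjusted p = 0.14), nor without juvenile array 1 (-1.08, adjusted p = 0.161), day 16 array 1 (adjusted p = 0.0551) or day 16 array 2 (adjusted p = 0.0689). Fitted on the compared arrays alone, Id4 (adjusted p = 0.0651), Itga6 (adjusted p = 0.0984) and Etv5 (adjusted p = 0.102) did not pass.

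Genes of differentiating spermatogonia rose or did not pass, with 1 exception. Of 16 listed 14 were tested, and 6 rose and 1 fell, with a median of 0.89 that was 0.18 without juvenile array 1 and 1.37 without juvenile array 2. Uchl1, a ubiquitin hydrolase abundant in spermatogonia, read 7.09 and 8.32 against 3.63 and 3.64, 16.8-fold higher (4.07 ± 0.52 SE, adjusted p = 7.44e-05). Crabp1, a retinoic acid-binding protein, read 2.29 and 2.53 against -0.77 and -0.69 and rose 8.80-fold (adjusted p = 0.000637). Nefm, the middle neurofilament chain, read -1.79 and 1.04 against -3.47 and -3.62 and rose 9.03-fold (adjusted p = 0.00326), but stood at 0.28 (adjusted p = 0.621) with normexp. Cyclin D2, a driver of the entry into the cell cycle in differentiating spermatogonia, was among the rises too. Its gene Ccnd2 read 3.07 and 5.18 against 1.88 and 1.80, 4.87-fold higher (adjusted p = 0.00491; 0.0885 in a fit of the compared arrays alone). Dmrt1, a male sex-determining transcription factor of germ and Sertoli cells, read 2.19 and 2.48 against 0.69 and 0.64 and rose 3.17-fold (adjusted p = 6.07e-05). Sohlh2, a helix-loop-helix factor that promotes spermatogonial differentiation, was the gene that fell. It read 2.30 and 3.24 against 3.76 and 3.74 (-0.98 ± 0.30 SE, adjusted p = 0.0176), and without juvenile array 1 (-0.51, adjusted p = 0.157), day 16 array 1 (adjusted p = 0.0743) or day 16 array 2 (adjusted p = 0.0675) it did not pass. Stra8, the retinoic acid-induced gatekeeper of meiosis, read 7.75 and 7.06 in the juvenile cells and 8.53 and 8.44 at day 16. Both juvenile arrays lay below both day 16 arrays, but the difference did not pass (-1.08 ± 1.73 SE, adjusted p = 0.636). The spread of the E13.5 pair enters this SE, and in a fit of the compared arrays alone the adjusted p was 0.0601. The X-linked homeobox gene Rhox13 read 4.80 and 3.54 against 4.09 and 4.09 (adjusted p = 0.94), and the de novo methyltransferase gene Dnmt3b 1.82 and 2.71 against 2.00 and 1.98 (adjusted p = 0.536; with normexp 0.91, adjusted p = 0.0115).

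**Figure D3:**
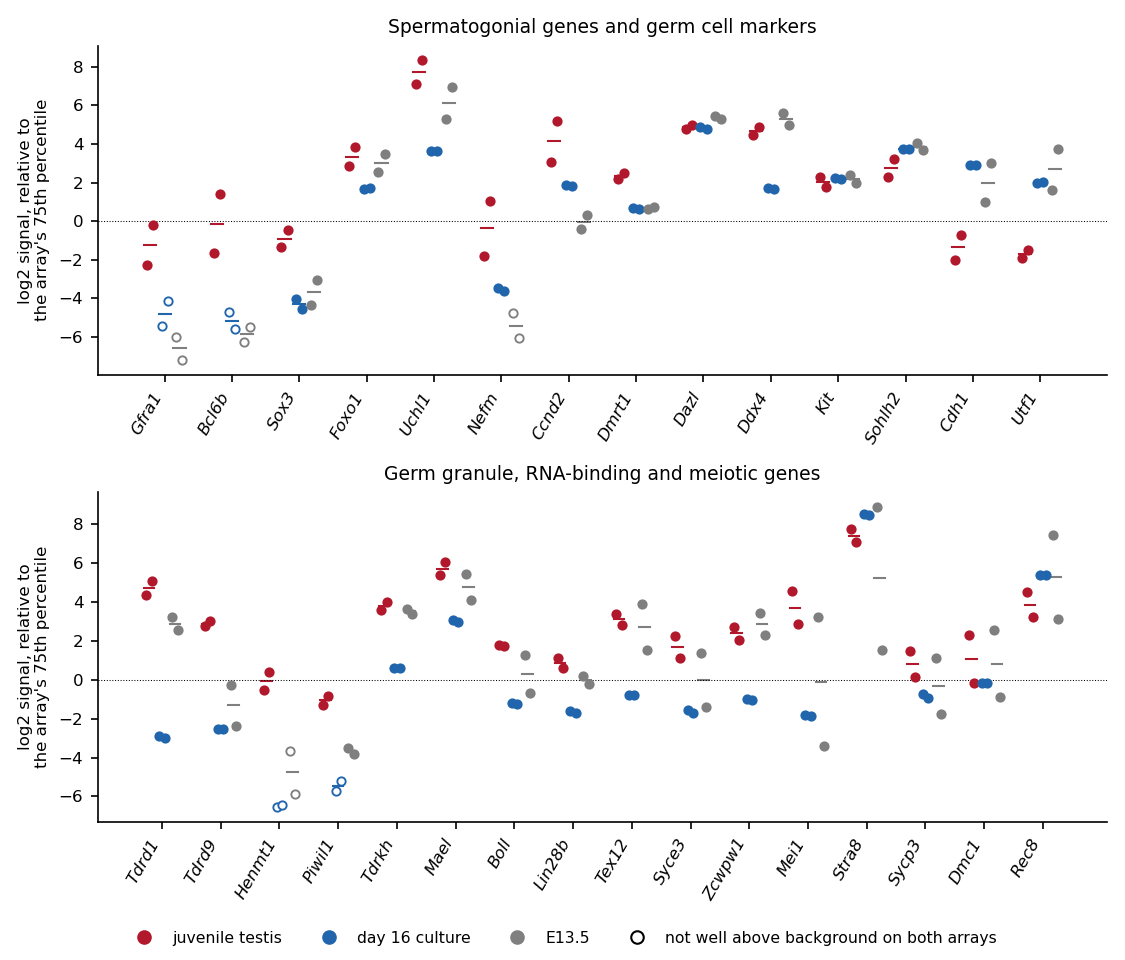
Levels (log2 signal relative to the array's 75th percentile) of spermatogonial genes and germ cell markers (top) and of germ granule, RNA-binding and meiotic genes (bottom) on each array of the juvenile, day 16 and E13.5 groups; points are arrays, bars group means, and open points groups not well above background on both arrays. Levels can be compared within a gene only. Tdrd1 reads 4.34 and 5.09 in juvenile cells and -2.88 and -3.01 at day 16, whereas Dazl and Kit overlap between these groups. Stra8 lies lower on both juvenile arrays than on both day 16 arrays.

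The piRNA pathway rose most evenly. Of 25 listed genes 22 were tested, 15 rose and none fell, with a median difference of 2.54; leaving out 1 of the 4 arrays gave 12 to 17 rises and no fall. Tdrd1, a tudor protein that binds PIWI proteins in germ granules, had the largest rise of named genes after Cst9 and Cst12. It read 4.34 and 5.09 in the juvenile cells and -2.88 and -3.01 at day 16, 202-fold higher (7.66 ± 0.27 SE, adjusted p = 1.15e-08). Henmt1, which methylates the ends of piRNAs, read -0.55 and 0.41 against -6.52 and -6.43, at background, and was at least 29.0-fold higher (adjusted p = 8.41e-06). Tdrd9, a helicase with a tudor domain, read 2.74 and 2.996 against -2.52 and -2.51, 41.7-fold higher (5.38 ± 0.54 SE, adjusted p = 1.29e-05). These genes stood far below their juvenile level on both day 16 arrays. Piwil1, a PIWI protein best known from spermatocytes, read -1.27 and -0.84 against -5.74 and -5.22, at background, and was at least 14.7-fold higher (adjusted p = 3.51e-07). Tdrkh, a tudor protein of mitochondria that serves piRNA trimming, read 3.59 and 4.00 against 0.62 and 0.58 and rose 9.17-fold (adjusted p = 3.91e-07). Of the 7 members that did not pass, 4 are given. Tdrd12 read 2.88 and 3.64 against 3.28 and 3.22 (adjusted p = 0.988), Tex19.1 read 5.48 and 6.74 against 5.70 and 5.73 (adjusted p = 0.327), Gtsf1 read 4.30 and 5.47 against 4.31 and 4.31 (adjusted p = 0.362), and Asz1 read 0.85 and 1.99 against 0.95 and 0.89 (adjusted p = 0.308). With normexp all 4 were called higher: Tdrd12 at 0.82 (adjusted p = 0.0205), Tex19.1 at 1.35 (adjusted p = 0.000958), Gtsf1 at 1.40 (adjusted p = 0.00727) and Asz1 at 0.89 (adjusted p = 0.0277). Without juvenile array 1, Tex19.1 (1.03, adjusted p = 0.00254) and Asz1 (1.07, adjusted p = 0.0428) passed too. In the other direction, with normexp Piwil1 stood at -0.15 (adjusted p = 0.697) and Henmt1 at 0.42 (adjusted p = 0.307).

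Promoters of germline genes often hold the E-box CACGTG, a motif that MGA and MAX, of the repressive Polycomb complex PRC1.6, can bind, and the sequence GCGGGAA, an E2F6 motif. The 4 promoters printed are those of the genes with the largest rises among the axis, recombination, piRNA and germline RNA-binding lists, to show the windows searched. They run from 250 bases before to 50 bases after the start of the gene, from RefSeq with build GRCm38.p6, 5′ to 3′ on the strand of the gene. Capitals mark CACGTG, which reads the same on both strands.
Tdrd1: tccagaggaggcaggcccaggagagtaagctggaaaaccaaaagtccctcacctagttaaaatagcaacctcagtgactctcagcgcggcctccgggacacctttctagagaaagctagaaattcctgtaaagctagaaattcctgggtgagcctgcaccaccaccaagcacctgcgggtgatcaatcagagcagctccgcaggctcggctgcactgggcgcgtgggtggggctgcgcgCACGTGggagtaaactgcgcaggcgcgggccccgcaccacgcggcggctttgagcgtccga
Henmt1: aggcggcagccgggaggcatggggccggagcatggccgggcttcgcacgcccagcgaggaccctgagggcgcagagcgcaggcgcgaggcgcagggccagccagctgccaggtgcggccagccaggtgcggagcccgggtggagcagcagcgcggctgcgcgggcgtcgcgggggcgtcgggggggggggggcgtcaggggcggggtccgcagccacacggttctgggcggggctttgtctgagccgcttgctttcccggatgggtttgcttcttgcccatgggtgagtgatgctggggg
Mei1: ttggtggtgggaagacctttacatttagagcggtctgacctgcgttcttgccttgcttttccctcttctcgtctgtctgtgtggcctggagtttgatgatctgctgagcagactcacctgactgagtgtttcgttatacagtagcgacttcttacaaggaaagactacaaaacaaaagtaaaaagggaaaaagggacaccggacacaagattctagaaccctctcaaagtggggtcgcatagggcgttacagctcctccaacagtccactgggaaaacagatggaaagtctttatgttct
Tdrd9: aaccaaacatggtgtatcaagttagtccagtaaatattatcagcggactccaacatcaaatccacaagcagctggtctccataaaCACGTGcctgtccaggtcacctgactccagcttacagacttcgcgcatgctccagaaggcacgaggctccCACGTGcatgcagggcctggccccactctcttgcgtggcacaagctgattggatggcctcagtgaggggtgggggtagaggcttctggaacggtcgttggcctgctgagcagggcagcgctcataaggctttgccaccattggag
The Tdrd1 window (chr19:56825959-56826258, plus strand, the first of 3 in the table) holds 1 CACGTG, and that of Tdrd9 (chr12:111971309-111971608, plus strand) holds 2. The windows of Henmt1 (chr3:108940307-108940606, plus strand) and Mei1 (chr15:82082226-82082525, plus strand) hold none, and none of the 4 holds GCGGGAA on either strand. Of the 40 genes of these lists that rose, 36 had a window, and CACGTG was in 14 of them (38.9%). It was in 6 of 27 windows of tested members that did not rise (22.2%), in 9.69% of the 12282 windows of genes tested and in 7.24% of all 27025. GCGGGAA, searched on both strands, was in 7 of the 36 (19.4%), in 5 of the 27 (18.5%), in 7.82% of windows of genes tested and in 4.66% of all windows. By list, CACGTG was in 7 of 14 windows of piRNA genes that rose and in 1 of 8 of recombination genes. These matches describe letters in a window, and the lists were chosen with results of these data known.

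Other RNA-binding proteins of the germline rose as well. Of 21 listed 20 were tested, and 12 rose and 2 fell (median 1.42), with 8 rises without either day 16 array. Mael, a germ granule protein, read 5.39 and 6.03 against 3.06 and 2.94, 6.54-fold higher (adjusted p = 8.37e-05). Boll, the relative of Dazl used later in meiosis, read 1.76 and 1.75 against -1.20 and -1.27, 7.93-fold higher (adjusted p = 0.000182). Lin28b, an inhibitor of let-7 microRNA maturation, read 1.11 and 0.61 against -1.61 and -1.73, 5.76-fold higher (adjusted p = 1.44e-05). Ddx25, a testis RNA helicase, read 4.16 and 4.47 against 1.69 and 1.74 and rose 6.08-fold (adjusted p = 1.78e-05). Tial1, a stress granule protein also used outside the germline, fell. It read -0.37 and -1.32 against 2.75 and 2.73 (12.0-fold lower, adjusted p = 1.23e-06) on its brightest probe, and its other probe gave -0.37.

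Chromosome axis genes, which build the scaffold and the synaptonemal complex of meiotic chromosomes, rose in 7 of 18 tested of 20 listed, none fell, and the median was 1.36, or 0.80 without juvenile array 1. Tex12 and Syce3, both of the central element of the complex, rose. Tex12 read 3.38 and 2.82 against -0.78 and -0.77, 14.7-fold higher (3.88 ± 0.64 SE, adjusted p = 0.000447). Syce3 read 2.23 and 1.11 against -1.58 and -1.69, 9.90-fold higher (adjusted p = 0.00137). Syce1, their partner, read 4.99 and 4.52 against 2.87 and 2.91, 3.66-fold higher (adjusted p = 0.00239). Sycp2, of the lateral element, read 1.55 and -0.19 against -2.81 and -3.13, 12.6-fold higher on its brightest probe (adjusted p = 0.0027), with 0.35 on the least changed of its 3 probes and adjusted p = 0.125 with array quality weights. Tex11, an X-linked gene needed for crossovers, read -0.81 and -1.59 against -3.53 and -4.36 (6.70-fold, adjusted p = 0.00421), but -0.18 (adjusted p = 0.655) with normexp background correction and adjusted p = 0.214 with array weights. The best known axis genes did not pass in the main setting. Sycp3 read 1.46 and 0.12 against -0.72 and -0.94 (adjusted p = 0.117), and Sycp1 read 2.95 and 1.79 against 0.71 and 0.72 (adjusted p = 0.174). The meiotic cohesin gene Rec8 read 4.48 and 3.24 against 5.36 and 5.39 (adjusted p = 0.221), and Smc1b 6.05 and 5.05 against 4.96 and 4.96 (adjusted p = 0.346). Hormad1, an axis checkpoint protein, read 1.12 and -0.66 against 0.33 and 0.31 (adjusted p = 0.909). Without E13.5 array 1, whose spread enters the shared error, Sycp3 was called higher (adjusted p = 0.0282) and Rec8 lower (adjusted p = 0.00541), and with normexp Sycp1 (1.92, adjusted p = 0.00136) and Smc1b (1.54, adjusted p = 0.00631) were called higher. Sycp1 was also called with low signals floored (adjusted p = 0.0292), and Hormad1 was called lower as a mean over its probes (-1.19, adjusted p = 0.0436). For Sycp3 and Sycp1 the juvenile arrays lay above both day 16 arrays, and for Rec8 below them.

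Recombination genes gave 8 rises and 1 fall among 19 tested of 24 listed, beside 26.2% rises and 23.0% falls over all genes. Their median of 1.17 was 0.21 without juvenile array 1 and 0.31 with normexp. The number of rises depended on single arrays. Without juvenile array 1, on which 15 of the 19 were higher, 4 rises remained in number, without day 16 array 1 there were 5, and without juvenile array 2 there were 9. Mei1, needed for the breaks that start recombination, read 4.55 and 2.86 against -1.82 and -1.88, 46.9-fold higher (5.55 ± 1.43 SE, adjusted p = 0.00737), and did not pass without juvenile array 1 (4.71, adjusted p = 0.0569). Zcwpw1, a reader of the histone marks at recombination sites, read 2.71 and 2.04 against -0.97 and -1.03, 10.4-fold higher (adjusted p = 1.68e-05). Mlh3, of the crossover nuclease, read -0.48 and -0.27 against -1.499 and -1.59 and rose 2.25-fold (adjusted p = 0.000455), but stood at 0.04 (adjusted p = 0.874) with normexp background correction. The weakly measured genes of this list depended on the background correction most. Mei4, a partner of the break machinery, read -3.81 and -3.55 against background and was at least 2.38-fold higher (adjusted p = 0.00218), and Msh4, which stabilises crossover intermediates, read -2.27 and -3.73 against background and was at least 3.80-fold higher (adjusted p = 0.0047, or 0.0663 with low signals floored). With normexp they were called lower, at -1.65 and -1.42, and Mei4 lost its call with array weights (adjusted p = 0.0983). Mnd1, a strand invasion factor, fell, with levels of 0.60 and 1.05 against 2.09 and 2.07 (-1.25 ± 0.32 SE, adjusted p = 0.00644), but -0.55 (adjusted p = 0.13) with normexp. Dmc1, the meiotic recombinase, read 2.28 and -0.15 against -0.16 and -0.17 and did not pass (adjusted p = 0.289): array 1 stood apart from the day 16 arrays and array 2 did not.

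X-linked germ cell genes included both rises and a steep fall. Of 19 listed 14 were tested, 8 rose and 3 fell (median 1.71). Nxf2, an mRNA export factor of the germline, read 1.87 and 2.26 against -2.81 and -2.87, 29.8-fold higher (adjusted p = 0.00019). Tktl1, a transketolase-like enzyme, read 1.63 and 1.52 against -2.22 and -2.40, 14.8-fold higher (adjusted p = 0.00115). Rhox5, a homeobox gene of Sertoli cells and of ES cell derivatives, read 2.73 and 0.71 against 8.30 and 8.29, 95.2-fold lower (-6.57 ± 0.69 SE, adjusted p = 1.82e-05). The number of falls in this list was 1 to 3 when 1 array was left out.

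The pluripotency network separated the groups most. Of 13 general pluripotency genes tested (16 listed) 11 fell and 1 rose, and of 17 naive pluripotency genes tested (18 listed) 14 fell and none rose, with medians of -4.51 in both lists, which share members. Nanog read 3.53 and 3.64 at day 16 and -7.48 and -8.00, at background, in the juvenile cells, at least 621-fold lower (adjusted p = 3.45e-08). Sox2 read 4.00 and 3.96 against -7.29 and -6.43, also at background, at least 817-fold lower (adjusted p = 7.09e-10). Pou5f1, the Oct4 gene, was lower but measured in the juvenile cells. It read 4.57 and 4.55 at day 16 and -1.91 and 0.75 in the juvenile cells, 35.3-fold lower (-5.14 ± 0.62 SE, adjusted p = 5.24e-05). It was higher on juvenile array 2, as most of the stem cell genes were. Esrrb, an orphan receptor of the naive network, read 2.68 and 2.75 at day 16 and -3.46 and -3.48 in the juvenile cells, 72.6-fold lower on its brightest probe (adjusted p = 9.57e-08), with -1.44 on the other. Tbx3, a T-box factor, read 3.75 and 3.74 against -2.59 and -2.62, 81.4-fold lower (adjusted p = 9.92e-10). Spp1, the secreted protein osteopontin, read 6.99 and 7.03 against 0.42 and -0.04, 113-fold lower (adjusted p = 8.99e-08). Klf2, a Krüppel-like factor whose probes disagreed, read 6.56 and 6.55 against 0.998 and 0.76, 51.1-fold lower on its brightest probe (adjusted p = 1.27e-08), while its other probe gave 0.78. Gdf3, a TGF-beta ligand of pluripotent cells, read 1.12 and 1.08 at day 16 and was at background in the juvenile cells, at least 111-fold lower (adjusted p = 9.48e-08). Dppa2, a chromatin factor, read 2.10 and 2.11 against -2.41 and -1.78, 18.4-fold lower (adjusted p = 1.4e-07). Stat3, which carries the Lif signal, did not pass, at 1.92 and 1.85 against 2.12 and 2.15 (adjusted p = 0.505).

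Early primordial germ cell genes moved in both directions, more of them down. Of 16 tested (17 listed) 4 rose, Ddx4 among them, and 9 fell (median -2.52). Dppa3, the Stella gene of primordial germ cells and oocytes, read 3.55 and 3.58 at day 16 and -2.17 and -2.43 in the juvenile cells, 58.4-fold lower (-5.87 ± 0.35 SE, adjusted p = 3.63e-07). Dppa5a, an RNA-binding protein of pluripotent cells, read 9.06 and 9.08 against 2.12 and 3.17, 85.8-fold lower (adjusted p = 8.07e-07). Ifitm3, the Fragilis membrane protein, read 4.60 and 4.69 against -0.70 and -1.11, 46.9-fold lower (adjusted p = 1.71e-07). Ifitm1, of the same family, read 3.91 and 3.87 against -1.55 and -0.88, 34.4-fold lower (adjusted p = 8.65e-07). Primed epiblast genes fell in 9 of 18 tested and rose in 2 (median -2.08). Nodal, the ligand of early embryonic patterning, read 2.65 and 2.64 against -2.61 and -2.71, 39.6-fold lower (adjusted p = 0.00113). Pou3f1, which is a gene of both the epiblast and spermatogonia, went the other way, at 3.76 and 4.93 against 2.31 and 2.26, 4.17-fold higher (adjusted p = 0.000437).

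**Figure D4:**
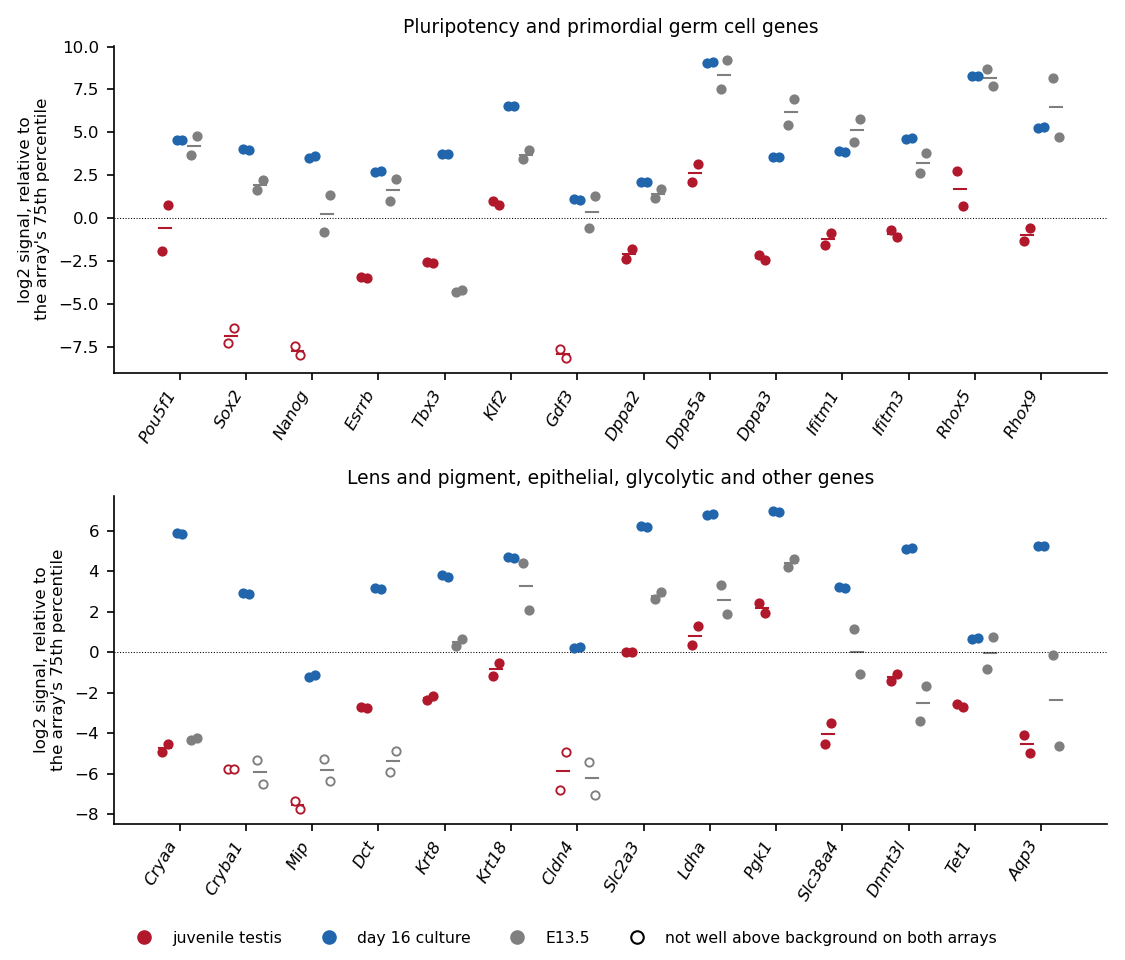
Levels (log2 signal relative to the array's 75th percentile) of pluripotency and primordial germ cell genes (top) and of lens, pigment, epithelial, glycolytic and other genes (bottom) on each juvenile, day 16 and E13.5 array; points are arrays, bars group means, open points groups not well above background on both arrays. Both day 16 arrays lie above both juvenile arrays for each gene drawn, while E13.5 is near day 16 for Pou5f1 (3.67 and 4.78) and near the juvenile cells for Cryaa (-4.35 and -4.26).

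Lens and pigment genes, which no germ cell stage is known for, were high at day 16. Of 23 tested (27 listed) 17 were lower in the juvenile cells and 1 higher (median -3.66), and their summed level was 93.7 and 92.2 on the day 16 arrays and 2.77 and 2.71 on the juvenile arrays. Cryaa, the lens chaperone alpha A crystallin, read 5.89 and 5.85 at day 16 and -4.93 and -4.52 in the juvenile cells, 1551-fold lower (-10.60 ± 0.42 SE, adjusted p = 1.88e-08). Cryba1, a beta crystallin, read 2.89 and 2.87 at day 16 and was at background in the juvenile cells, at least 358-fold lower (adjusted p = 3.35e-07). Mip, the lens fibre water channel, was at least 23.1-fold lower (adjusted p = 1.23e-06). Dct and Tyrp1 are enzymes of melanin synthesis. Dct read 3.16 and 3.13 against -2.74 and -2.75, 59.3-fold lower (adjusted p = 1.1e-06), and Tyrp1 was at least 9.45-fold lower (adjusted p = 7.63e-08). Epithelial genes followed, with 9 of 14 tested lower and 1 higher (median -3.05). Krt8 and Krt18 encode the paired keratins of simple epithelia: Krt8 read 3.78 and 3.73 against -2.37 and -2.17, 65.2-fold lower (adjusted p = 1.55e-06), and Krt18 4.69 and 4.64 against -1.18 and -0.54, 45.9-fold lower (adjusted p = 1.79e-05). Esrp1, an epithelial splicing regulator, was the member that rose, from -4.35 and -4.25 to -0.77 and 0.26 (16.5-fold, adjusted p = 1.85e-05), but not with normexp background correction (0.27, adjusted p = 0.486). Trophoblast genes were lower in 8 of 13 tested and higher in 1 (median -3.88). Tfap2c, a factor shared by trophoblast and primordial germ cells, read 3.20 and 3.20 against -1.33 and -0.80, 19.3-fold lower (adjusted p = 1.75e-06). Plet1, a surface protein of trophoblast progenitors, read 1.23 and 1.21 against -3.74 and -3.42, 27.8-fold lower (adjusted p = 1.4e-07). What part cells of these other types in the day 16 sort had in the differences was not tested.

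Glycolysis genes were lower in the juvenile cells almost throughout. Of 21 tested (23 listed) 16 fell and 1 rose (median -2.76). Slc2a3, the glucose transporter GLUT3, read 6.20 and 6.18 at day 16 and 0.02 and 0.02 in the juvenile cells, 72.0-fold lower on its brightest probe (-6.17 ± 0.19 SE, adjusted p = 4.35e-09), with -2.88 on the other. Ldha, lactate dehydrogenase A, read 6.76 and 6.81 against 0.33 and 1.299, 62.7-fold lower (adjusted p = 5.85e-07). Pgk1, an X-linked enzyme of the payoff phase, read 6.95 and 6.94 against 2.41 and 1.90, 27.5-fold lower (adjusted p = 2.72e-08). The platelet-type phosphofructokinase and the lactate exporter MCT4 fell with them. Their genes read 3.13 and 3.07 against -2.19 and -0.92 for Pfkp (25.2-fold, adjusted p = 8.33e-07) and 5.04 and 4.96 against 1.71 and 0.71 for Slc16a3 (13.9-fold, adjusted p = 1.32e-06). Gpi1, glucose phosphate isomerase, did not pass, at 6.08 and 7.31 against 7.06 and 7.07 (adjusted p = 0.338), but was called lower without juvenile array 2 (-0.98, adjusted p = 0.00113). The muscle enolase gene Eno3 rose, from 1.87 and 1.83 to 3.47 and 2.97 (2.59-fold, adjusted p = 0.000997).

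Stress and immediate-early genes, which respond within minutes to tissue handling and growth factors, were lower in 11 of 20 tested and higher in 4, with a median of -1.72; the rises were 2 without either day 16 array or without juvenile array 2. Junb read 3.19 and 3.16 at day 16 and 0.28 and 0.16 in the juvenile cells, 7.77-fold lower (adjusted p = 2.1e-07). Fos read 0.54 and 0.55 against -2.24 and -2.65, 7.94-fold lower (adjusted p = 8.65e-06), and Jun 0.08 and 0.05 against -2.60 and -3.90, 9.95-fold lower (adjusted p = 2.29e-05). Hspb1, a small heat shock protein, read 5.25 and 5.22 against 0.64 and 0.09, 29.2-fold lower (adjusted p = 2.11e-06). The zinc finger factors Egr2 and Egr4 rose instead. Egr2 read 0.93 and 2.78 against -1.77 and -1.69, 12.0-fold higher (adjusted p = 0.000282), and Egr4, which male fertility requires, read 3.92 and 6.25 against -1.80 and -1.75, 116-fold higher (adjusted p = 0.000472). Cultured and testis cells were dissociated by different protocols, so handling and group cannot be told apart here. Of 34 cell cycle genes tested 3 rose and 11 fell, with a median of -0.28 that was -0.44 without juvenile array 2 and 0.25 with normexp, under which 11 rose and 7 fell. Cdk1 read 1.23 and 1.38 against 3.27 and 3.28, 3.91-fold lower (adjusted p = 0.000255), and its partner Ccna2 read 2.08 and 1.98 against 3.82 and 3.82, 3.46-fold lower (adjusted p = 3.99e-05). The p21 inhibitor gene Cdkn1a read -1.45 and -1.54 against 1.22 and 1.21, 6.53-fold lower (adjusted p = 6.5e-07). The proliferation marker Mki67 did not pass, at 4.94 and 4.59 against 4.37 and 4.35 (adjusted p = 0.196), but was called higher with normexp (1.31, adjusted p = 0.000236).

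Regulators of DNA methylation moved in both directions, with 4 rises and 7 falls in 17 tested and a median of 0.06; the rises were 2 without day 16 array 2 and under array median scaling, and the median was -0.17 without juvenile array 2. Over all genes 26.2% rose and 23.0% fell, so the share of rises in this list was near that of all genes. Dnmt3l, the cofactor of de novo methylation, read 5.08 and 5.14 at day 16 and -1.41 and -1.09 in the juvenile cells, 82.3-fold lower (-6.36 ± 0.40 SE, adjusted p = 4.36e-07). The demethylating dioxygenases fell too. Tet1 read 0.65 and 0.68 against -2.54 and -2.72, 9.82-fold lower (adjusted p = 3.68e-05), and Tet2, at background in the juvenile cells, was at least 24.2-fold lower (adjusted p = 1.4e-07). Zfp57, which protects imprints, read -0.88 and -1.02 against -5.37 and -4.64 and fell 16.6-fold (adjusted p = 4.24e-07), with 1 juvenile array above background. Dnmt1, the maintenance enzyme, rose 1.72-fold, from 3.56 and 3.53 to 4.24 and 4.42 (adjusted p = 0.00621), but did not pass after scaling to the array median (adjusted p = 0.0575). Dnmt3a, a de novo enzyme, rose 2.11-fold, from 1.77 and 1.68 to 2.59 and 3.01 (adjusted p = 0.00976), and did not pass without juvenile array 2 (0.87, adjusted p = 0.0681) or day 16 array 2 (1.03, adjusted p = 0.0535). Among 20 PRC1.6 and H3K9 methylation genes 9 rose and 7 fell (median 0.47), with 6 rises without day 16 array 2. Ehmt2, the H3K9 methyltransferase G9a, read 6.96 and 7.59 against 5.02 and 4.90, 4.98-fold higher (adjusted p = 6.72e-06). Yaf2 and Rybp are alternative subunits of the same Polycomb complexes and moved apart. Yaf2 read 4.36 and 3.80 against 1.38 and 1.40, 6.47-fold higher (adjusted p = 1.41e-05), and Rybp 2.16 and 1.57 against 3.18 and 3.22, 2.52-fold lower (adjusted p = 0.000269), though at -0.52 (adjusted p = 0.0779) with normexp. E2f6, the DNA-binding repressor of PRC1.6, read 3.35 and 4.48 against 2.04 and 1.99 and rose 3.72-fold (adjusted p = 0.00175), while its partner Max did not pass, at 2.28 and 2.19 against 2.69 and 2.69 (adjusted p = 0.295).

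Imprinted genes fell in 16 of 25 tested (29 listed) and rose in 2, with a median of -2.04. Slc38a4, a paternally expressed amino acid transporter, read 3.20 and 3.16 at day 16 and -4.53 and -3.52 in the juvenile cells, 148-fold lower (-7.21 ± 0.55 SE, adjusted p = 1.82e-06). Snrpn, a splicing protein gene, read 1.69 and 1.63 against -2.19 and -1.70, 12.2-fold lower (adjusted p = 1.65e-05). Impact, a translation regulator, read 3.71 and 3.69 against -1.01 and -0.31, 20.5-fold lower (adjusted p = 1.4e-07). Meg3 and Dlk1 lie in 1 imprinted cluster and moved apart. The maternally expressed RNA Meg3 read 2.76 and 2.80 against -0.38 and 0.71, 6.13-fold lower (adjusted p = 0.000122), and the paternally expressed Notch ligand relative Dlk1 read 0.50 and 0.51 against 2.28 and 3.57, 5.34-fold higher in the juvenile cells (adjusted p = 0.000998). Retinoic acid genes, which time spermatogonial differentiation, rose in 6 of 20 tested and fell in 1, a share of rises near that of all genes, with a median of 0.45 that was 0.16 without day 16 array 1, 0.70 without day 16 array 2, 0.69 without juvenile array 1 and -0.53 with normexp. Aldh1a2, which makes retinoic acid, read 3.36 and 1.95 against -1.48 and -1.42, 17.2-fold higher (adjusted p = 0.000136). Rbp4, a retinol carrier, read 4.51 and 3.50 against 0.14 and 0.13, 14.6-fold higher (adjusted p = 1.71e-05). Cyp26b1, which degrades retinoic acid, read 0.03 and -0.82 against -3.12 and -3.02, 6.38-fold higher (adjusted p = 0.000174), though at 0.11 (adjusted p = 0.773) with normexp background correction.

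Genes of Sertoli cells, the somatic nurse cells of the cords, were among the largest rises in the GFP-sorted juvenile cells. Of the 25 listed all were tested and measured on both juvenile arrays, and 13 rose and 3 fell, with a median of 1.66 that was -0.07 with normexp, under which 7 rose and 12 fell. Cst9 and Cst12, cystatin family genes of the testis, led all named genes. Cst9 read 4.79 and 2.15 in the juvenile cells and -6.63 and -6.66, at background, at day 16, at least 338-fold higher (adjusted p = 0.00168), and Cst12 read 4.19 and 1.69 against background, at least 234-fold higher (adjusted p = 7.78e-07). Mro, a testis gene, read 0.74 and -1.22 against background, at least 25.8-fold higher (adjusted p = 0.000455), but 0.52 (adjusted p = 0.334) with normexp. Inha, the inhibin alpha chain, read 1.91 and 0.36 against -3.09 and -3.13, 18.96-fold higher (adjusted p = 0.000141). Of the 5 defining markers 3 rose. Wt1, a transcription factor of Sertoli cells, read 0.03 and -1.17 against background, at least 20.5-fold higher (adjusted p = 5.03e-05), but 0.26 (adjusted p = 0.568) with normexp. Dhh, a hedgehog ligand, read 2.88 and 1.76 against -2.60 and -2.77, 32.1-fold higher (adjusted p = 0.00364). Fshr, the follicle-stimulating hormone receptor, read -2.75 and -3.62 against background, at least 3.36-fold higher (adjusted p = 0.00267), but was called lower with normexp (-1.43) and had adjusted p = 0.172 with array weights. Sox9, a sex-determining factor, read 0.12 and -1.64 against -1.48 and -1.42 (adjusted p = 0.691), and Amh, the anti-Müllerian hormone, -2.64 and -2.64 against background (adjusted p = 0.11). Amh was called higher in a fit of the compared arrays alone (adjusted p = 0.00751) and lower with normexp (-1.38, adjusted p = 0.00462). Juvenile array 1 was the higher for Cst9, Cst12, Mro, Inha, Wt1, Dhh, Fshr and Sox9. The summed Sertoli level was 123.3 and 34.1 on the juvenile arrays and 361.9 and 358.1 at day 16, and without Rhox5 it was 116.7 and 32.5 against 46.5 and 45.9. The share of Sertoli RNA in the juvenile sort, and its part in the rises of other genes, was not tested.

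Markers of other somatic cell types of the testis were measured too. The list counts against day 16 in this paragraph are read beside the shares over all genes, 26.2% higher and 23.0% lower. All 4 defining Leydig markers and both of peritubular myoid cells were measured on both juvenile arrays, but of each set 1 was called higher, and the whole lists gave 2 of 9 and 1 of 11 rises, the Leydig count being 0 without day 16 array 1 and 1 without any other array. Against E13.5, on the same slide, 6 of 11 myoid genes were higher and none lower (median 1.21), beside 16.0% higher and 18.9% lower over all genes. A fit of the compared arrays alone called only 1.93% of all genes against E13.5. Insl3, a Leydig cell hormone, was 6.81-fold lower in the juvenile cells, at -3.46 and -3.66 against -0.86 and -0.71 (adjusted p = 0.00021). The summed Leydig list was 1.41 and 1.67 on the juvenile arrays and 1.15 and 1.66 at day 16. The summed myoid list was 16.0 and 15.2 against 24.4 and 24.1. Of the 3 macrophage markers 2 were measured on both juvenile arrays, 1 of them called higher, and Adgre1 was at background (-5.84 and -6.72). In the whole list 4 of 12 members rose, or 1 without day 16 array 1, and the sums were 1.02 and 1.35 against 1.16 and 1.28. Among the 3 endothelial markers 1 was measured on both juvenile arrays and 0 were called higher. Tie1 was at background on both juvenile arrays (-6.40 and -6.18), and Pecam1 was 41.6-fold lower than at day 16 (adjusted p = 1.4e-06). In the whole endothelial list 2 of 14 members rose and 6 fell, with sums of 6.48 and 7.60 against 13.1 and 12.6. The haemoglobin gene Hba-a1 was 4.73-fold higher in the juvenile cells, at -0.67 and -0.08 against -2.81 and -2.43 (adjusted p = 0.00155), but 0.19 with normexp (adjusted p = 0.554) and without a call with array weights (adjusted p = 0.0862). In the whole erythroid list 4 of 10 members rose and 1 fell (median -0.07), with 0 rises under array weights. The erythroid sums were lower in the juvenile cells, at 2.34 and 2.78 against 4.56 and 4.92. Spermatid genes, of cells not yet formed at this age, rose in 2 of 11 tested and fell in 1 (median -0.12); the rises were 0 without day 16 array 1 and 3 without day 16 array 2, and the median was -0.42 to -0.03 when 1 array was left out. The nuclear transition protein gene Tnp1 was 3.82-fold higher (adjusted p = 0.0296), but not without juvenile array 2 (1.23, adjusted p = 0.221) or day 16 array 1 (1.58, adjusted p = 0.162).

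**Figure D5:**
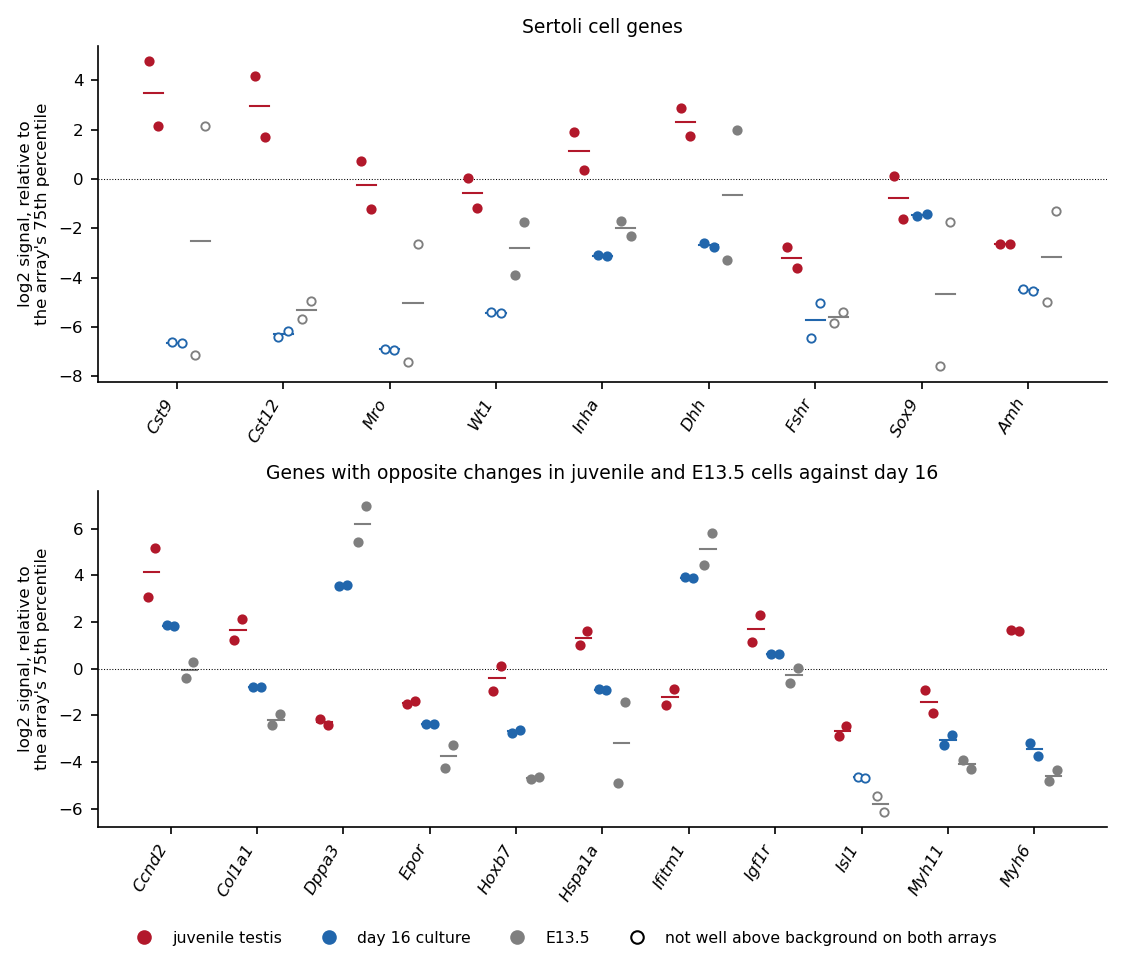
Levels (log2 signal relative to the array's 75th percentile) of Sertoli cell genes (top) and of 11 genes that differed from day 16 in opposite directions in juvenile and E13.5 cells (bottom) on each array; points are arrays, bars group means, open points groups not well above background on both arrays. Cst12 reads 4.19 and 1.69 in juvenile cells and is at background at day 16; Myh6 reads 1.65 and 1.62 in juvenile cells, -3.17 and -3.73 at day 16 and -4.81 and -4.35 at E13.5.

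The remaining named genes with the largest rises came from several functions. Bnc1, the zinc finger protein basonuclin of germ cells and keratinocytes, read 0.20 and 0.58 in the juvenile cells and was at background at day 16, at least 39.9-fold higher (adjusted p = 7.06e-08). Lhx8, a LIM homeobox factor best known from oocytes, read 0.27 and 0.22 against background, at least 36.1-fold higher (adjusted p = 2.91e-07). Etd, a gene of testis differentiation, read 2.53 and -0.11 against background, at least 70.5-fold higher (adjusted p = 4e-05). Bnc1 and Lhx8 read alike on both juvenile arrays, whereas Etd was far higher on array 1. Smpx, an X-linked muscle protein, read 2.42 and -0.54 against background (at least 58.5-fold, adjusted p = 0.000107). Eppin, a protease inhibitor of Sertoli and epididymal cells, read 1.33 and 0.34 against background (at least 54.4-fold, adjusted p = 0.000348). Adcy10, the soluble adenylyl cyclase of sperm, and Smoc2, a secreted matrix protein, were each at least 33.6-fold higher (adjusted p = 6.27e-07 and 4.15e-05), but stood at 0.87 (adjusted p = 0.0634) and 0.96 (adjusted p = 0.0898) with normexp background correction.

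Among the largest falls not yet described were genes of transport, lipid synthesis and noncoding RNA. Aqp3, a water and glycerol channel, read 5.25 and 5.24 at day 16 and -4.09 and -4.98 in the juvenile cells, 880-fold lower (-9.78 ± 1.03 SE, adjusted p = 1.91e-05). Ambp, a plasma protein precursor of the liver and visceral endoderm, read 2.82 and 2.78 against background, at least 268-fold lower (adjusted p = 1.15e-05). Gpat3, an acyltransferase of triglyceride synthesis, read 0.84 and 0.91 against background, at least 95.1-fold lower (adjusted p = 4.35e-09). Trpm1, a channel of melanocytes and retinal bipolar cells, read 0.69 and 0.54 against background, at least 79.4-fold lower (adjusted p = 8.99e-08). The noncoding RNAs Eprn and Platr10, both of pluripotent cells, were at least 194-fold (adjusted p = 7.09e-10) and at least 75.4-fold lower (adjusted p = 1.54e-06). Gtsf1l, a relative of the piRNA factor Gtsf1, read 2.27 and 2.29 at day 16 and -5.96 and -5.45 in the juvenile cells, 1 of which was above background (254-fold, adjusted p = 1.15e-07).

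The E13.5 arrays, on the same slide as the juvenile arrays, allowed the juvenile cells to be tested against germ cells of the embryo; both comparisons share the juvenile arrays. The E13.5 arrays differed from each other more than any other pair (Stra8 read 8.87 and 1.55), so values without E13.5 array 1 are given too. Which of the 2 arrays is the unusual one cannot be told. The values without array 1 rest on 1 E13.5 array, with the spread taken from other groups. Gene values without array 2 instead are not given. Juvenile cells differed from E13.5 in 6577 genes (34.8% of those tested), 3016 higher (16.0%) and 3561 lower (18.9%). A fit of the compared arrays alone called 365 genes (1.93%), and array quality weights 1551 (8.22%). Bcl6b, at background at E13.5, was at least 38.3-fold higher in the juvenile cells (adjusted p = 0.000141), and Gfra1 at least 17.7-fold (adjusted p = 0.000443). Tdrd1 read 3.22 and 2.56 at E13.5 and was 1.83 log2 units higher in the juvenile cells (adjusted p = 0.000365; 2.16 without E13.5 array 1), and Henmt1 was 4.68 higher (adjusted p = 0.00015; 5.78 without). Other germ cell genes above day 16 did not pass against E13.5: Ddx4 (-0.60, adjusted p = 0.0623; -0.30 without array 1), Tdrkh (0.27, adjusted p = 0.329), Bnc1 (0.27, adjusted p = 0.598) and Zcwpw1 (-0.48, adjusted p = 0.328). The axis list had no call against E13.5 in either direction in 18 genes, and the recombination list 1 higher and 4 lower of 19. Both counts rest on E13.5 array 1 in part. Without it 6 axis genes were higher and none lower, and 5 recombination genes were higher and 2 lower. Against E13.5 array 2 alone, the axis genes Tex12 (1.58), Syce3 (3.05) and Syce1 (0.81) were higher in the juvenile cells. So were the recombination genes Mei1 (7.10) and Msh4 (1.86). Of the genes that fell, Pou5f1 (-4.80, adjusted p = 0.00016), Nanog (at least 62.3-fold, adjusted p = 9.85e-07), Sox2 (at least 194-fold, adjusted p = 1.57e-08), Dppa3 (-8.49, adjusted p = 1.12e-07) and Rhox5 (-6.47, adjusted p = 3.9e-05) were lower in the juvenile cells than at E13.5 as well. Lens genes did not pass: Cryaa differed by -0.43 (adjusted p = 0.482) and Cryba1 by 0.15 (adjusted p = 0.865), both dim in the 2 germ cell groups. Of the glycolysis genes, 7 of 21 were lower in the juvenile cells than at E13.5 and 2 were higher, or 11 and 2 without E13.5 array 1. Slc2a3 differed by -2.77 from E13.5 (adjusted p = 1.54e-06), against -6.17 from day 16.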

How the data were processed

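RNA was measured on 1-colour Agilent arrays, 2 per group in 9 groups. Per the file headers, spot intensities were extracted, background-subtracted and detrended within each array with Agilent Feature Extraction 9.1.3.1; the authors also deposited group means as intensities scaled to the array median, used as an alternative. The flags for spots well above background, a unit of 0 or 1, came from the same deposited files. From these, 43379 spots that were not controls gave 41002 probes (172 with outlier flags left out); spots of a probe were averaged, divided by the array's 75th percentile and taken as log2. Probes named by the deposited accession (22846) or symbol (9721) took RefSeq names and 8435 kept the file's name. Probes well above background on both arrays of at least 1 group (28114) were kept, and the brightest stood for each of 18876 genes. Before this filter, 8857 genes had several probes. All 18 arrays entered 1 limma fit (limma 3.58.1, R 4.3.3, 9 residual and 2.39 prior degrees of freedom), with no covariate; a call is a Benjamini-Hochberg adjusted p under 0.05 over all genes. On simulated data, 65 of 100 genes changed by 2 log2 units and 15 of 100 changed by 1 were called, with 9 false calls in 18676. The simulation gave all arrays of a gene the same spread. The real day 16 and juvenile pairs differed by medians of 0.062 and 0.443, so these counts do not give the error rates of this comparison.

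Genes named are a panel of 8, the 12 called with the largest rise and fall whose groups do not overlap, up to 5 called members of each of 35 lists per direction by p, defining cell type markers, the 4 genes whose promoters are printed, and list members not called. The members and lists were chosen with earlier results of these data known. Replicate numbers did not pair the arrays. Over genes, the deviations of juvenile array 1 and day 16 array 1 from their group means had a correlation of -0.03.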

Additional observations from a re-analysis of the deposited data

Results flagged for a closer look

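For 11 of the genes named by the rule, the juvenile and E13.5 cells differed from day 16 in opposite directions, each difference passed the test, and so did juvenile against E13.5 itself. The day 16 arrays are shared by both differences, and E13.5 array 1 stands apart from array 2, so the juvenile minus E13.5 value in log2 units is given with all arrays and then without E13.5 array 1. Juvenile cells were higher for Myh6, the atrial and embryonic myosin heavy chain (6.22, then 5.99), Hspa1a, an inducible heat shock protein (4.47, then 2.75), Hoxb7, a homeobox gene (4.28, then 4.23), and Ccnd2, cyclin D2 (4.17, then 3.83). They were also higher for Col1a1, a fibrillar collagen chain (3.84, then 3.61), Isl1, a LIM homeobox gene (3.13, then 3.47), Myh11, smooth muscle myosin (2.68, then 2.87), Epor, the erythropoietin receptor (2.30, then 1.81), and Igf1r, the insulin-like growth factor receptor (2.01, then 1.68). They were lower for Dppa3 (-8.49, then -9.25) and Ifitm1 (-6.34, then -7.01), which were higher at E13.5 than at day 16. Against day 16, Epor, Igf1r, Hoxb7 and Hspa1a lost their call in at least 1 of the 4 fits that left out an array of the comparison. With normexp Isl1 (-1.27, adjusted p = 0.00165) and Epor (-0.75, adjusted p = 0.0109) were called lower than day 16. Myh11 (-0.42, adjusted p = 0.24) and Hoxb7 (0.37, adjusted p = 0.353) were then not called. In a fit of the compared arrays alone Myh11 (adjusted p = 0.0507), Ccnd2 (0.0885) and Igf1r (0.128) did not pass. With array weights Myh11 (0.0663), Epor (0.0703) and Hoxb7 (0.0949) did not pass. No pattern among these genes was tested.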

How the results depend on the processing

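Between juvenile and day 16 cells 9300 genes were called, and the alternatives gave 6829 to 13851. Fits without 1 array of the comparison gave 6829 to 8601 calls (10463 without E13.5 array 1). Against the 4350 calls that were lower, normexp background correction gave 9430 and no filter on dim probes 7344. Against E13.5, where 6577 genes were called (3016 higher, 3561 lower), a fit of the compared arrays alone called 365 (191 higher, 174 lower) and array quality weights, added after seeing the data, 1551 (593 higher, 958 lower). Normexp gave 1832 higher, and fits without 1 array 5961 to 7612 in all. With the replicate number as a block the calls were 9423 and 6659; replicate numbers gave no pairing. With normexp the difference from day 16 turned negative for Gfra1 (-0.13), Piwil1 (-0.15), Tex11 (-0.18), Mei4 (-1.65), Msh4 (-1.42), Fshr (-1.43), Amh (-1.38), Adgre1 (-2.25), Tie1 (-2.18), Isl1 (-1.27), Mesp1 (-0.41), Epor (-0.75) and Myh11 (-0.42), and with low signals floored for Tie1 (-0.77). Among genes called in neither setting, Sox9 (-0.07 with normexp) and Adgre1 (-0.77 with low signals floored) turned negative too. In all, 9 genes named that were not called gained a call in the same direction with normexp, as given beside them. Amh (adjusted p = 0.00462), Adgre1 (adjusted p = 2.01e-05) and Tie1 (adjusted p = 1.82e-05), not called in the main setting, were called lower with it. Normexp here added an offset of 50 to every signal before each array was scaled to its 75th percentile. In the main setting that percentile was 474 and 435 on the juvenile arrays and 156 and 164 on the day 16 arrays. What part the offset had in these changes was not tested. Signal over background limits 1389 calls whose lower group was not measured on either array, 940 of them at day 16.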

Other observations

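Lists of other embryonic tissues moved in both directions. Of 22 mesoderm genes tested 8 were higher and 2 lower, with a median of 0.07 that was -1.65 with normexp background correction, and of 22 endoderm genes 3 were higher and 8 lower (median -1.24; 4 to 6 lower without 1 array), beside 26.2% higher and 23.0% lower over all genes. Afp, alpha-fetoprotein, read 2.43 and 4.72 in the juvenile cells, -2.23 and -2.17 at day 16 and -4.78 and -0.38 at E13.5 (54.7-fold above day 16, limma adjusted p = 0.000889). Myh6 read 1.65 and 1.62 against -3.17 and -3.73 at day 16, 34.0-fold higher (adjusted p = 2.48e-08). Tbx6, a T-box factor of presomitic mesoderm, read -0.69 and 0.25 against -2.86 and -2.76, 6.02-fold higher (adjusted p = 0.000123), but 0.64 (adjusted p = 0.0578) with normexp. Mesp1, a factor of early mesoderm, read -0.94 and -1.498 against background, at least 11.5-fold higher (adjusted p = 0.000427), but -0.41 (adjusted p = 0.24) with normexp. Of 18 neural genes 4 were higher, 8 lower and 6 not called (median -0.86). Pax6 read 0.25 and 0.27 at day 16 and -5.05 and -4.91 in the juvenile cells (37.8-fold, adjusted p = 1.65e-08), and Stmn2 was at least 30.7-fold lower (adjusted p = 1.21e-08).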
